A study of Homo sapiens with 8 samples.

Results

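Cytokine, chemokine and NF-κB genes were followed in A549 cells, a human lung adenocarcinoma line, after siRNA against NFE2L2, which encodes the transcription factor NRF2. The set was chosen by name, with earlier results of these data known. It holds 45 genes: interleukins, chemokines, TNF, their receptors, the NF-κB subunits and inhibitors, and well-known NF-κB target genes. Of these, 44 were matched to an identifier among the 60291 in the count tables. CCL5 was not matched and is named only. Total RNA was sequenced strand-specifically from 8 transfections. NFE2L2 siRNA comprised 3 libraries, each from a single transfection with a different duplex. Control siRNA comprised 4 libraries, from 2 transfections with each of 2 control duplexes, and 1 library came from a mock transfection with Lipofectamine and no siRNA. All cells received Lipofectamine RNAiMAX and were harvested after 48 h, and none was treated with a cytokine. KEAP1, which normally targets NRF2 for degradation, is inactivated by mutation in A549, so the control cells have high NRF2 to begin with. The model is a single cell line, and in the NFE2L2 group a duplex and a replicate are the same thing.

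NF-κB dimers are formed from RELA, RELB, REL and the processed products of NFKB1 and NFKB2, and are held back by IκB proteins such as NFKBIA and NFKBIE until a receptor signal removes them. TNF and interleukin-1 are the classical inducers, and chemokines, IL6, TNFAIP3 and the IκB genes themselves are classical targets, so that the pathway limits itself. NFKBIZ encodes IκBζ, an atypical nuclear IκB that is induced by interleukin-1 and Toll-like receptor signals and acts as a co-regulator of secondary response genes. NRF2 is best known for antioxidant genes, and cross-talk between NRF2 and inflammatory genes has been described in several cell types.

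The promoter letters most often bound by NF-κB, called κB words here, are shown early because the set is defined by that pathway. Promoter windows of 300 bases, from 250 before to 50 after the start of transcription, came from RefSeq (GRCh38.p14) for 36 of the 45 genes, in 50 windows. BIRC3, CCL20, CXCL1, CXCL2, CXCL3, CXCL5, IL32, IL6, NFKB1, NFKB2, NFKBIA, NFKBIZ, REL and TNFAIP3 held the longer word (GGG, any 2 bases, then TTTCC) on either strand, and CXCL10, ICAM1 and IL8 (now CXCL8) held only the shorter word GGANTTTCC. The words overlap wherever the fourth base of the longer word is A. Of all 35116 windows, 1.91% held the longer word, 1.64% the shorter and 2.98% at least 1 of them, against 36% of the members' windows. Below, the longer κB word nearest to the start of transcription is given on the gene's strand with its flanks, for NFKB1, NFKB2, the inhibitors NFKBIZ, NFKBIA and TNFAIP3, 4 CXC chemokines and IL6. Capitals mark the κB word, which in NFKBIA and TNFAIP3 lies on the opposite strand. The first 10 bases of the TNFAIP3 stretch are a further longer word on the opposite strand, printed in lower case.
NFKBIZ, chr3:101827755-101827788: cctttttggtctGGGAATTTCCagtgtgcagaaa
NFKB1, chr4:102501298-102501331: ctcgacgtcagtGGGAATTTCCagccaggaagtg
NFKB2, chr10:102395672-102395705: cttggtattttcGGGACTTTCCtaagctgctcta
NFKBIA, chr14:35404809-35404842: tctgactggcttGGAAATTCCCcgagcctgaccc
TNFAIP3, chr6:137867192-137867225: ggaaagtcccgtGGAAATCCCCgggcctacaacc
IL6, chr7:22727115-22727148: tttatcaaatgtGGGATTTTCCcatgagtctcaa
CXCL1, chr4:73869302-73869335: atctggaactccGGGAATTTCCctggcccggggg
CXCL2, chr4:74099252-74099285: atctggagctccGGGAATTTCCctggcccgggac
CXCL3, chr4:74038747-74038780: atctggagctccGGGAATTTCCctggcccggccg
CXCL5, chr4:73998747-73998780: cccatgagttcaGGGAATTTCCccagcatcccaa

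The IL8 window held an AP-1 word (TGANTCA) 137 bases before the start and the shorter κB word 91 bases before it. Both are shown in capitals in the next line.
IL8, chr4:73740420-73740498: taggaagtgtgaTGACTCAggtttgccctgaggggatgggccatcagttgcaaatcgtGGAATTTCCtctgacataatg
NFKBIZ, NFKB1, NFKB2, TNFAIP3, IL6, CXCL1 and IL8 lie on the plus strand, and NFKBIA, CXCL2, CXCL3 and CXCL5 on the minus strand. The AP-1 word was also found in windows of IL11, IL1A, IL23A and IL6R, and occurred in 7.71% of all windows. TGACNNNGC, the core of the antioxidant response element through which NRF2 acts, was found in windows of CXCL10, IL1A, IL1R1, IL32, NFKBIA and TNFAIP2. It occurred in 14% of the members' windows against 13.35% of all windows, both strands searched. A match describes the letters and is not a measured binding site.

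Between 35525141 and 41645410 reads per library were assigned to genes, and the 3 NFE2L2 siRNA libraries held 1178, 2044 and 1262 NFE2L2 reads against 3974 to 4227 in control siRNA and 4408 in mock. NQO1, GCLM and TXNRD1, classical NRF2 targets, fell by 2.19 to 2.57 on the log2 scale. A gene was tested with edgeR when at least 10 reads were counted in at least 1 of the 7 siRNA libraries, and was called at an adjusted p under 0.01. Of the 17811 genes tested, 248 rose and 243 fell. Of 8 epithelial markers the keratins KRT7, KRT8 and KRT18 were abundant in every library, and KRT19 had 1475 to 4831 reads and CDH1 3627 to 9868. Lower were EPCAM with 142 to 427, CLDN4 with 40 to 132 and MUC1 with 17 to 54. Of 12 leukocyte markers CD14 had 156 to 394 reads, ITGAM 33 to 90 and PTPRC, CD3E and MS4A1 at most 3. Levels below are CPM, read counts scaled to library size with edgeR's TMM factors, and a level compared between genes is CPM per kb of exon.

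In control cells the members' mean levels ran from 0.0120 to 115 CPM per kb. CXCL5, a neutrophil chemokine, was highest at 115 ± 17.5 CPM per kb (SD, n = 4). TNFRSF1A, the main TNF receptor, followed at 77.3 ± 7.74, TNFAIP2, a TNF-induced protein, at 66.2 ± 2.69, and NFKBIA, IκBα, at 47.1 ± 2.72. The ranges of the 4 control libraries did not overlap between neighbours among these 4 genes. NFKBIA, IL6ST (gp130, the shared receptor of the interleukin-6 family) and IL11, at 47.1, 46.1 and 42.5 CPM per kb, overlapped with each other. Among the chemokines, CXCL2 (16.4), CXCL1 (15.9), IL8 (9.23) and CCL2 (8.15) lay in the middle of the order, and CXCL3 (2.69), CCL26 (1.79) and CCL20 (0.345) below them. RELA (8.63) and RELB (7.64) overlapped, while NFKBIZ (2.97) lay above NFKB1 (2.53) in every control library. IL6, IL1B and IL1A were near the bottom at 0.341, 0.187 and 0.182 CPM per kb. TNF, CSF2 and CXCL10 did not pass the filter. TNF had 1 read in each NFE2L2 siRNA library and 1, 2, 0 and 0 in control siRNA, CSF2 had 4, 1 and 0 against 2, 0, 2 and 1, and CXCL10 had none against 0, 2, 0 and 1. A count of 3 reads, the limit that a count of 0 allows, corresponds to 0.0720 to 0.0844 CPM in these libraries.

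**Figure D1:**
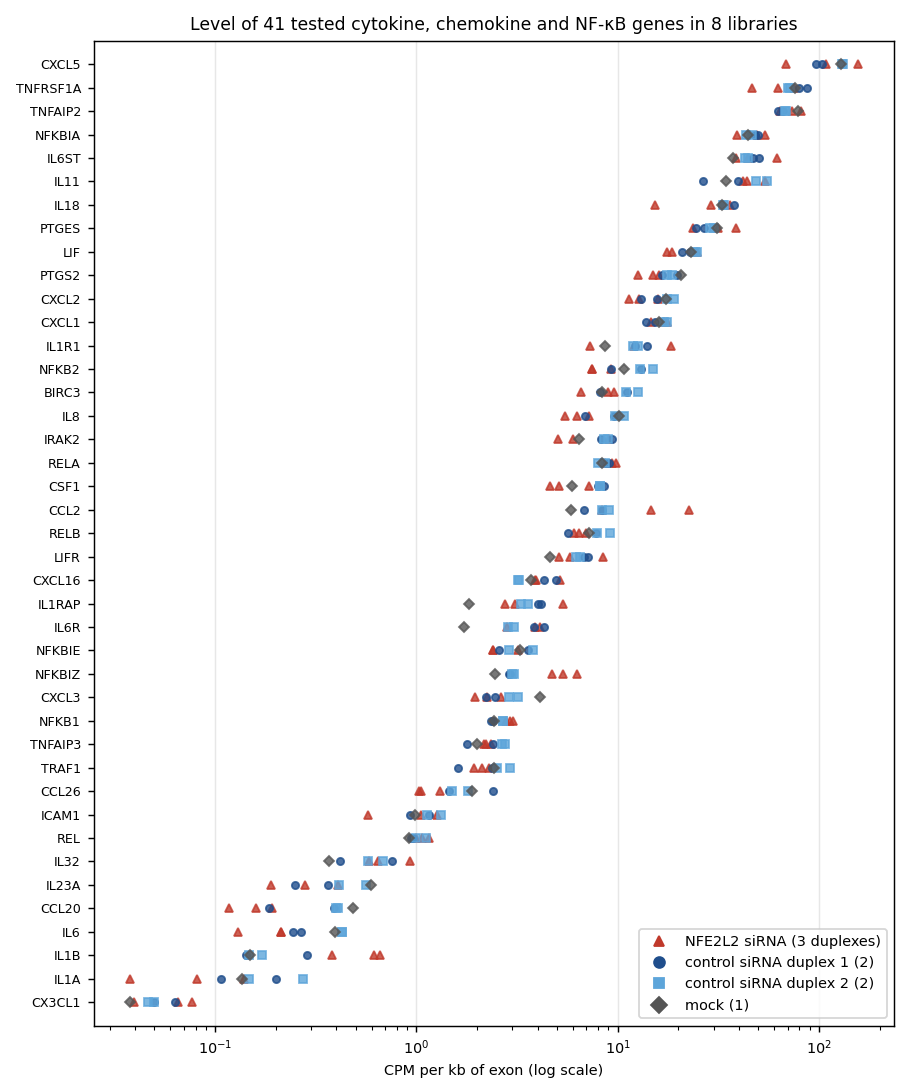
CPM per kb of exon (log axis) of the 41 tested genes in each of the 8 libraries, ordered by the mean of the control libraries; triangles are NFE2L2 siRNA, circles and squares the control duplexes, diamonds mock. Levels run from CX3CL1 at 0.0523 to CXCL5 at 115 CPM per kb in control siRNA, and for NFKBIZ and IL1B the 3 triangles lie to the right of every other point.

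NFE2L2 siRNA against control siRNA asks which genes differ after siRNA against NFE2L2 in these cells. Of the 41 members tested, 1 rose and none fell, or 2.44% called, beside 2.76% of all genes tested (1.39% higher and 1.36% lower). At an adjusted p under 0.05 there were 4 members, NFKBIZ and IL1B higher and NFKB2 and CSF1 lower, or 9.76% beside 8.17% of all genes (4.63% higher and 3.54% lower). DESeq2 called the same 4 genes at 0.01, where it called 7.41% of all genes (4.08% higher and 3.32% lower). At 0.05 in DESeq2, CCL2 was added on the higher side and IL6 and IL8 on the lower, 17.1% of members beside 12.7% of all genes (6.82% higher and 5.92% lower). At an unadjusted p under 0.05 in edgeR there were 11 members, 26.8% beside 25.0%. The median log2 fold change was -0.10 over the 41 members, with 16 above and 25 below 0, and 0.0082 over all genes. As a group, then, the members were called about as often as any other genes. In bulk RNA, a difference in all cells and a larger difference in some of them cannot be told apart.

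**Figure D2:**
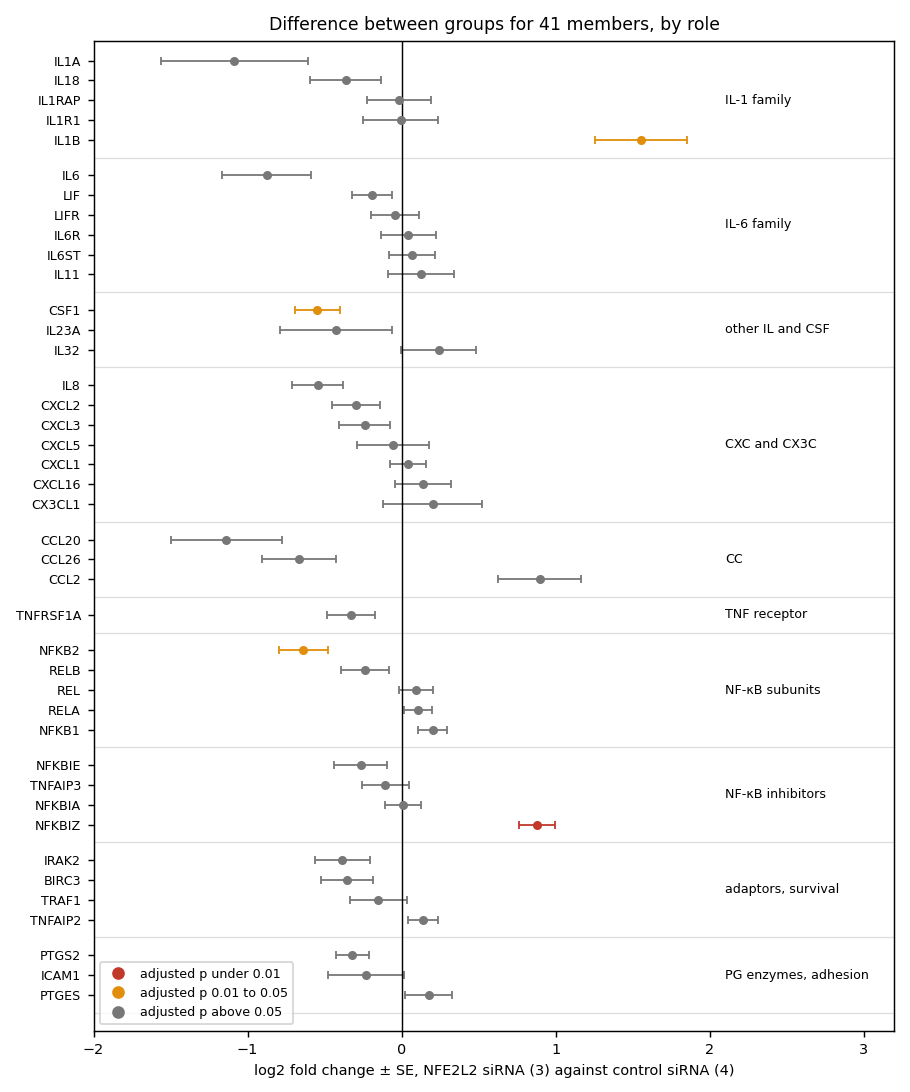
Log2 fold change with its standard error from edgeR for the 41 tested members, NFE2L2 siRNA (n = 3) against control siRNA (n = 4), grouped by role; red marks an adjusted p under 0.01 and orange 0.01 to 0.05. NFKBIZ is the red point at 0.88, and IL1B, CSF1 and NFKB2 are the orange points.

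NFKBIZ was the member that rose. Its gene lies at chr3:101546835-101579866 on the plus strand (GRCh37), and 1131, 1091 and 1586 reads were counted in NFE2L2 siRNA against 637, 644, 655 and 648 in control siRNA and 577 in mock. This corresponds to 31.6, 27.7 and 37.3 CPM against 17.1, 17.3, 17.7 and 17.9, and 14.4 in mock. All 3 duplexes lay far above a narrow control range, and the mock library lay below it. The level was 32.2 ± 4.79 CPM (SD, n = 3) against 17.5 ± 0.376 (n = 4), 1.84-fold higher, with a log2 fold change of 0.88 ± 0.115 (SE) and an adjusted p of 0.00204 in edgeR. The exact two-sided permutation test over the 35 divisions of the 7 libraries gave p = 0.0571, the smallest that 3 against 4 libraries allow. The adjusted p was between 0.000909 and 0.0130 when each library was left out in turn, above 0.01 without control duplex 1 replicate 2 (0.0130) or control duplex 2 replicate 1 (0.0115), while the log2 fold change stayed between 0.76 and 0.96. Against control duplex 1 or control duplex 2 alone it was 0.89 and 0.85, with adjusted p of 0.0422 and 0.0573.

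Over the 8 libraries, genes whose log2 CPM followed NFKBIZ most closely included CPNE2, ITM2B, GNPTAB and SPECC1, with Pearson's r of 0.998, 0.993, 0.992 and 0.989 across 8 libraries that share the same contrast. They were chosen by that measure among genes with at least 50 reads on average. Of these 4, CPNE2 rose, with a log2 difference of 0.63 (adjusted p of 0.00507 in edgeR), and ITM2B, GNPTAB and SPECC1 did not pass the test, at 0.45, 0.27 and 0.43.

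The other inhibitors did not pass the test. NFKBIA was measured at 161 ± 25.9 CPM against 160 ± 9.22, a log2 fold change of 0.0087 ± 0.116. For TNFAIP3 (A20), a ubiquitin-editing enzyme that shuts off TNF signalling, it was -0.10 ± 0.151, and for NFKBIE (IκBε) -0.27 ± 0.174. Their groups overlapped, and the adjusted p was 0.379 to 0.975 in edgeR.

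Among the subunits, NFKB1 and NFKB2 lay on opposite sides. NFKB2, whose p100 product is both an inhibitor and the precursor of p52, had 41.9, 51.6 and 41.6 CPM against 51.6, 73.0, 72.4 and 83.2 in control siRNA and 60.1 in mock. The groups just failed to overlap, since NFE2L2 duplex 2 and control duplex 1 replicate 1 were nearly equal. The log2 fold change was -0.64 ± 0.159, with an adjusted p of 0.0377 in edgeR and 0.00463 in DESeq2. With single libraries left out it ran from -0.76 to -0.55, with an adjusted p from 0.0106 without control duplex 1 replicate 1 to 0.126 without NFE2L2 duplex 3. NFKB1, the source of p50, had 45.8, 47.4 and 43.5 CPM against 36.8, 37.5, 42.3 and 42.0, and 38.3 in mock. Its groups did not overlap either, but the difference was small, 0.20 ± 0.0944 (adjusted p of 0.219). RELA, the main activating subunit, was measured at 50.7 ± 3.10 against 47.1 ± 2.45 CPM, REL at 18.4 ± 1.29 against 17.2 ± 1.42 and RELB, the partner of p52, at 19.4 ± 1.42 against 22.9 ± 4.37. None of these differences passed the test (adjusted p of 0.376 to 0.635).

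In the interleukin-1 family, IL1B had the largest difference of all members and few reads. It was counted at 71, 73 and 49 reads in NFE2L2 siRNA against 32, 16, 19 and 16 in control siRNA and 18 in mock. All NFE2L2 libraries lay above all controls, and the highest control was duplex 1 replicate 1. The log2 fold change was 1.56 ± 0.298, with an adjusted p of 0.0127 in edgeR and 0.000159 in DESeq2. When single libraries were left out it ranged from 1.41 to 1.84, and the adjusted p ran from 0.00921 without control duplex 1 replicate 1 to 0.0523 without control duplex 1 replicate 2. IL1A, the other interleukin-1 cytokine, had 10, 3 and 7 reads against 8, 15, 11 and 20, a log2 fold change of -1.09 ± 0.479 (adjusted p of 0.194). IL18, which like IL1B is matured by inflammasomes, had 93.9, 39.7 and 76.2 CPM against 86.0 to 99.0.

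IL1R1, the signalling receptor of interleukin-1, differed among the NFE2L2 duplexes and not between the groups. It had 52.2, 86.3 and 132 CPM with duplexes 1, 2 and 3 against 84.5 to 100 in control siRNA, a log2 fold change of -0.0064 ± 0.244. Duplex 1 lay below and duplex 3 above every control library. Its co-receptor IL1RAP ran the other way, at 59.9, 30.8 and 34.7 CPM against 37.3 to 46.4. Each duplex was transfected once, so duplex and transfection cannot be told apart.

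The CC chemokines held some of the larger differences, and none passed the test. CCL2, a monocyte attractant, had 1011, 1725 and 685 reads against 493, 605, 596 and 632, and 456 in mock. In CPM this was 28.3, 43.9 and 16.1 against 13.2, 16.3, 16.1 and 17.5, so that duplexes 1 and 2 were above all controls and duplex 3 within their range. The log2 fold change was 0.90 ± 0.270 with an adjusted p of 0.0719 in edgeR and 0.0146 in DESeq2, and it was 0.48 without duplex 2 and 1.19 without duplex 3 (adjusted p of 0.168 and 0.0105 in edgeR). CCL20, a ligand of CCR6, had 11, 10 and 8 reads against 11, 23, 24 and 23, and 31 in mock. The control library with 11 reads was duplex 1 replicate 1, and the log2 fold change was -1.14 ± 0.360 (adjusted p of 0.0832). CCL26, an eotaxin, had 33, 29 and 31 reads against 63, 38, 39 and 46, and its CPM did not overlap between groups (-0.66 ± 0.242, adjusted p of 0.123).

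Of the CXC chemokines, IL8, the main human neutrophil chemokine, had the largest difference. It had 18.6, 16.3 and 14.2 CPM against 17.7, 24.8, 25.1 and 27.9, and 26.2 in mock. NFE2L2 duplex 1 lay above control duplex 1 replicate 1, and all others were below every control. The log2 fold change was -0.54 ± 0.164, with an adjusted p of 0.0714 in edgeR and 0.0222 in DESeq2. CXCL1, CXCL2 and CXCL3, whose κB words shown above have similar flanks, had log2 fold changes of 0.042 ± 0.119, -0.30 ± 0.158 and -0.24 ± 0.167. Of the 50-base words in their transcripts, 4.57%, 13.4% and 6.01% also occurred in another CXC member, and the effect of this on their counts was not tested. Of these chemokines with many reads, CXCL5 varied most among the NFE2L2 duplexes, at 381, 167 and 263 CPM against 236 to 319. CXCL16, a transmembrane chemokine, and CX3CL1, with 10 to 18 reads, had log2 fold changes of 0.14 and 0.20.

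**Figure D3:**
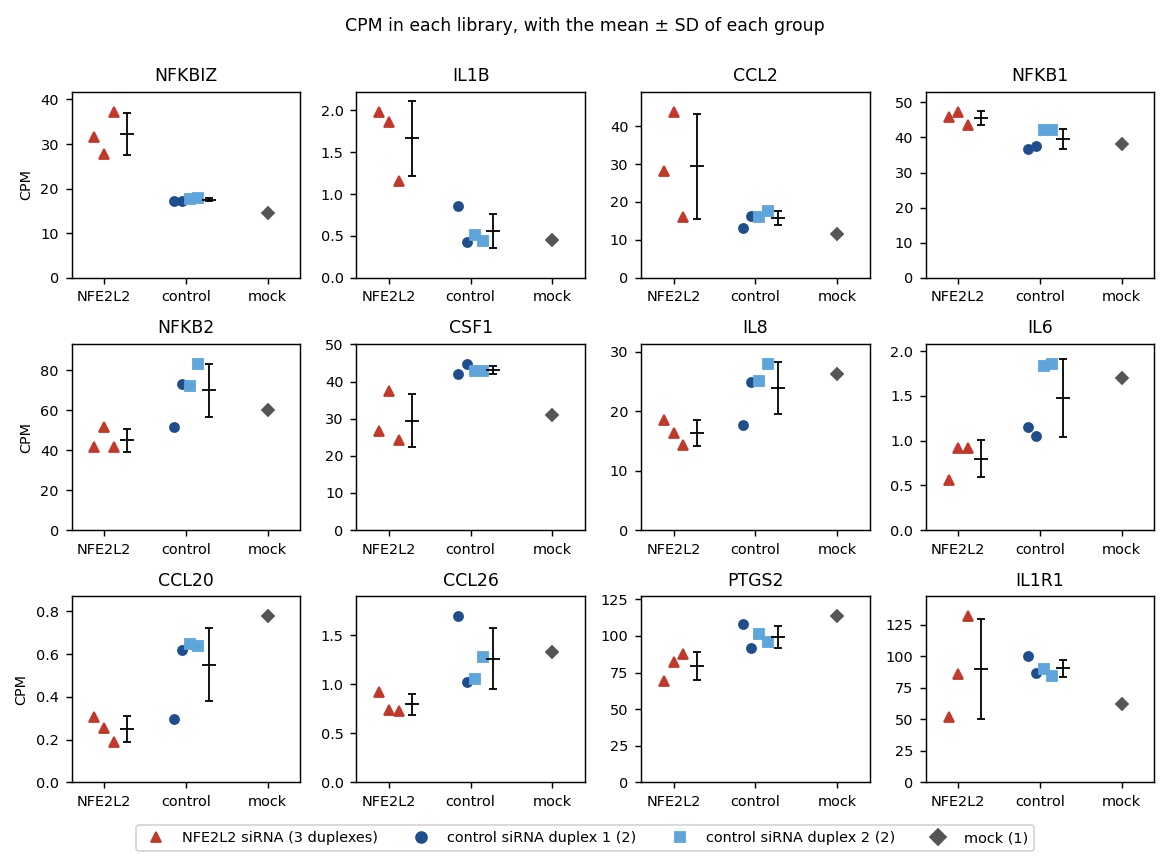
CPM of 12 members in each library, with the mean and SD of NFE2L2 siRNA (n = 3) and control siRNA (n = 4) beside the points and mock as a single point. NFKBIZ and IL1B are higher in all 3 NFE2L2 libraries, while CCL2 and IL1R1 spread widely among the duplexes.

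In the interleukin-6 family, IL6 itself had 20, 36 and 39 reads against 43, 39, 68 and 67, and 68 in mock. Its CPM did not overlap between groups, at 0.559, 0.916 and 0.916 against 1.15, 1.05, 1.84 and 1.86. The log2 fold change was -0.87 ± 0.288, with an adjusted p of 0.0943 in edgeR and 0.0476 in DESeq2. Both control duplex 2 libraries were well above both control duplex 1 libraries. IL11 and LIF, cytokines that also signal through gp130, were measured at 124 ± 17.2 against 114 ± 33.3 CPM and 78.5 ± 14.9 against 89.7 ± 6.99. The receptor genes IL6R, IL6ST and LIFR had log2 fold changes of 0.045, 0.067 and -0.043.

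CSF1, the macrophage growth factor, had 26.7, 37.6 and 24.3 CPM against 42.0, 44.7, 42.9 and 42.8 in control siRNA. All 3 NFE2L2 libraries lay below a narrow control range, but so did mock at 31.1. The log2 fold change was -0.55 ± 0.145, with an adjusted p of 0.0478 in edgeR and 0.00921 in DESeq2. With single libraries left out it ranged from -0.77 without NFE2L2 duplex 2 (adjusted p of 0.00158) to -0.42 without NFE2L2 duplex 3 (0.135), and leaving out any library other than duplex 2 gave an adjusted p of 0.0874 to 0.136. IL23A had 8, 19 and 14 reads against 11 to 24, and IL32 73 to 107 against 50 to 90.

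PTGS2 (COX-2), the inducible prostaglandin synthase, had 68.9, 82.4 and 87.7 CPM against 108, 91.5, 102 and 96.0, and 113 in mock. The groups did not overlap, and the log2 fold change was -0.32 ± 0.108 (adjusted p of 0.10). PTGES, which acts after it, was measured at 59.0 ± 14.1 against 52.2 ± 4.74 CPM. ICAM1, a leukocyte adhesion molecule, had 71, 172 and 155 reads against 120 to 169.

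Of the signalling and survival genes, TNFRSF1A had 318, 264 and 195 CPM against 367, 334, 303 and 296, a log2 fold change of -0.33 ± 0.156. For IRAK2, a kinase below the interleukin-1 receptor, it was -0.39 ± 0.178. With single libraries left out it ranged from -0.68 without NFE2L2 duplex 2 (adjusted p of 0.00662) to -0.22 without NFE2L2 duplex 1 (0.391). BIRC3, an inhibitor of apoptosis, TRAF1, a TNF receptor adaptor, and TNFAIP2 had log2 fold changes of -0.36, -0.15 and 0.14, with an adjusted p of 0.221 to 0.660.

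Counted over all members, the CPM of the groups did not overlap for 8 of 41, or 19.5%, beside 23.3% of all genes tested. IL1B, NFKB1 and NFKBIZ were higher in every NFE2L2 library, or 7.32% beside 11.9%, and CCL26, CSF1, IL6, NFKB2 and PTGS2 lower, or 12.2% beside 11.4%. Without control duplex 1 replicate 1, the lower count was 12 of 41, or 29.3% beside 13.9%, adding BIRC3, CCL20, IL1A, IL8, RELB, TNFAIP3 and TRAF1. That library was left out after the data were seen. It was the lowest control for most members, as given below, so leaving it out raises the lower count by construction. The larger share is therefore not a result about the members. The higher count stayed at 3, or 7.32% beside 14.4%. The median log2 fold change of the members was -0.22 without that library and -0.041 without control duplex 2 replicate 2, which were the ends of the range when single libraries were left out.

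That control library stood apart for the members. Among the 34 members with at least 50 reads on average, control duplex 1 replicate 1 was the lowest of the 4 control libraries for 24, or 70.6%, beside 26.2% of all 13335 such genes. Its level was a median of 0.13 log2 units below the control mean over the members and 0.0080 above it over all genes. The ratio of replicate 2 to replicate 1 within control duplex 1 was 2.09 for CCL20, 1.49 for IL11 and TRAF1, 1.41 for NFKB2, 1.40 for IL8, 1.38 for RELB and 1.37 for BIRC3, but 1.01 for NFKBIZ. Within control duplex 2 the same ratios were 0.982, 1.13, 1.16, 1.15, 1.11, 1.16, 1.15 and 1.01. Replicate 1 was thus the lower library in both control duplexes for IL11, TRAF1, NFKB2, IL8, RELB and BIRC3. For NFKB2, IL8 and BIRC3 the control libraries alone spanned a range at least as wide as the difference between the groups. Control duplex 2 replicate 2 was the highest control library for 16 of the 34, or 47.1%, beside 21.4%.

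**Figure D4:**
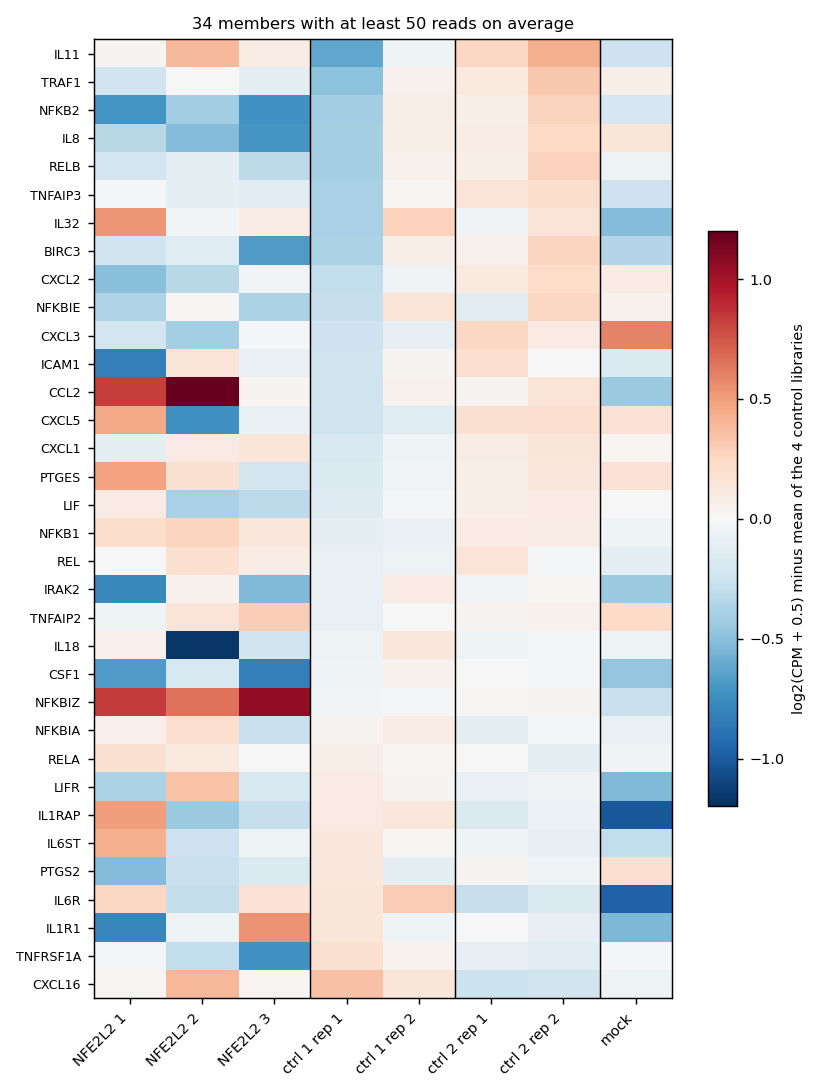
Colour gives log2(CPM + 0.5) minus the mean of the 4 control libraries for the 34 members with at least 50 reads on average, ordered by control duplex 1 replicate 1, with the 8 libraries side by side. In that library 24 of 34 members are the lowest of the controls, and NFKBIZ has high values in all 3 NFE2L2 libraries and near-zero values in the controls.

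The spread between the NFE2L2 libraries was larger than that between the controls. The median SD of log2(CPM + 0.5) over the 34 members was 0.240 in NFE2L2 siRNA and 0.148 in control siRNA, and over all such genes 0.196 and 0.106. It was larger in NFE2L2 siRNA for 22 of the 34, or 64.7%, beside 74.6% of all genes.

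Control duplex 2 was compared with control duplex 1, both non-targeting, for the same genes. With 2 libraries of each, differences between single transfections weigh on the result. In the fit of 3 groups neither edgeR nor DESeq2 called a member. There edgeR called 0% of all genes and DESeq2 0.393% (0.286% higher and 0.107% lower). At 0.05 edgeR called no member and 0.0561% of all genes. At an unadjusted p under 0.05, edgeR gave 5 members, 12.2% beside 7.26% of all genes: IL11, IL6 and TNFAIP3 higher with duplex 2, and CXCL16 and IL6R lower. IL11 had 131 and 148 CPM with duplex 2 against 71.1 and 106 with duplex 1, a log2 fold change of 0.65 ± 0.201. For IL6 the difference was 0.74 ± 0.276, for TNFAIP3 0.37 ± 0.161, for CXCL16 -0.52 ± 0.177 and for IL6R -0.46 ± 0.189, with an adjusted p of 0.492 to 0.683. When the 4 control libraries were fitted alone, with 2 libraries a group, CXCL5 was higher (adjusted p of 0.00571) and IL6R lower (0.00890), 4.88% of members beside 3.28% of all genes (1.77% higher and 1.51% lower). At 0.05 in that fit CXCL2, IL11 and IL6 were added on the higher side and CXCL16 on the lower, 14.6% beside 10.1% (4.70% higher and 5.35% lower). At an unadjusted p under 0.05 there were 19 members, 46.3% beside 26.0%. A replicate block on those 4 libraries raised the number of genes and of members called, as given in the closing section.

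The members leaned towards higher levels with duplex 2. Their median log2 fold change was 0.16, with 25 above and 16 below 0, and 0.0021 over all genes. Both duplex 2 libraries lay above both duplex 1 libraries for 18 of 41 members, 43.9% beside 27.4%, and below for 8, 19.5% beside 28.2%, or 63.4% beside 55.6% in either direction. The higher ones included CXCL1, CXCL2, CXCL3, CXCL5, IL8, IL6, IL11, LIF, RELB, NFKB1, TNFAIP3 and TRAF1. The lower ones were the receptors IL1RAP, IL6R, IL6ST, LIFR and TNFRSF1A, and also CXCL16, NFKBIA and RELA. The median was 0.087 without control duplex 1 replicate 1, 0.073 without control duplex 2 replicate 2 and 0.24 without control duplex 1 replicate 2.

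Members with a κB word in their window lay almost all on the higher side. Of all 17811 genes tested, 8979 were above 0 for duplex 2 against duplex 1. Of 16 tested members with the word, 15 were above 0 for duplex 2 against duplex 1, with a median log2 fold change of 0.31 and NFKBIA as the exception at -0.12. Of 17 with a window and no word, 6 were above 0, with a median of -0.096. Without control duplex 1 replicate 1 the medians were 0.12 and 0.036, with 14 of 16 and 10 of 17 above 0, so that most members without a word were then above 0 as well. For NFE2L2 siRNA against control siRNA the medians were -0.17 and -0.016, with 6 of 16 and 7 of 17 above 0. Without control duplex 1 replicate 1 they were -0.27 and -0.0097, with 5 of 16 and 8 of 17 above 0. These values are a description, since the comparisons share the control libraries and the members, measured in the same libraries, are not independent observations. Fold changes of genes outside the set with a κB word were not examined. The genes were also chosen with earlier results of these data known.

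**Figure D5:**
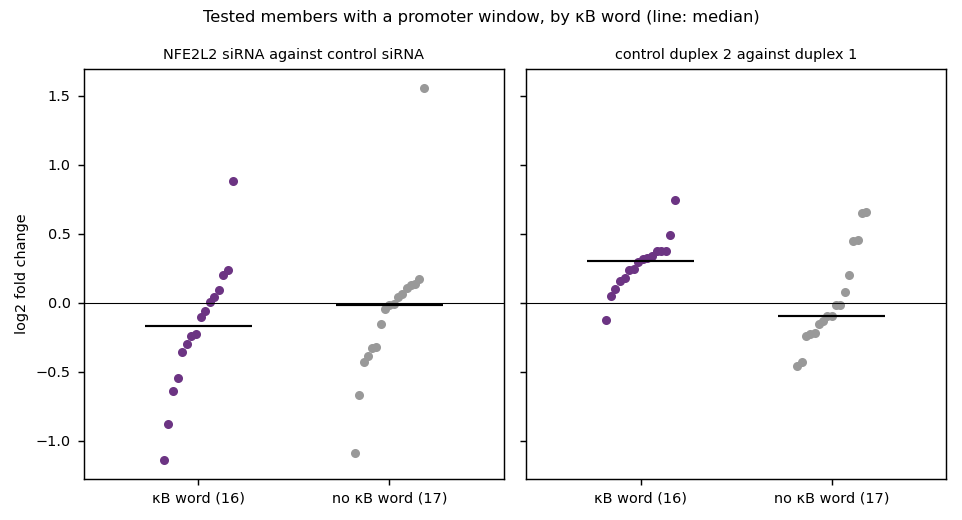
Log2 fold changes from edgeR for tested members with a promoter window, 16 with a κB word and 17 without, in both comparisons; lines are medians. In control duplex 2 against duplex 1, 15 of the 16 points with a word lie above 0, and with NFE2L2 siRNA both groups scatter around 0 with NFKBIZ at 0.88 and IL1B at 1.56 as the highest points.

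Mock cells, with 1 library and no test, lay outside the range of the 4 control siRNA libraries for 19 of 41 members. CCL20, CXCL3, IL23A, PTGES, PTGS2 and TNFAIP2 were above, 14.6% beside 22.6% of all genes. Below were 13, 31.7% beside 22.5%, among them the receptors IL1R1, IL1RAP, IL6R, IL6ST and LIFR. IL1RAP and IL6R were furthest, at -1.03 and -0.99 log2 units from the control mean, and CXCL3 was highest at 0.58. NFKBIZ was at -0.27, on the other side of the controls from NFE2L2 siRNA.

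Other genes of the pathway were taken from lists fixed for this work, with earlier results of these data known. The counts in each list stand beside shares of all genes tested. These shares were 2.76% called in edgeR, 7.41% in DESeq2 and 25.0% at an unadjusted p under 0.05 in edgeR. Of 27 tested genes that carry signals from receptors to NF-κB, TLR6 fell, with 358, 348 and 389 reads against 665, 624, 756 and 714 (-1.0 ± 0.116 on the log2 scale, adjusted p of 0.00100), and none rose, with 2 above 0 and 4 below at an unadjusted p under 0.05. MYD88, IKBKB and CHUK, the adaptor and kinases at the core of the pathway, had log2 fold changes of 0.54, 0.069 and -0.24. MAP3K14 (NIK), which drives NFKB2 processing, had 1326, 1442 and 1179 reads against 1369, 1973, 1974 and 2072 (-0.57 ± 0.167, adjusted p of 0.0663). As for NFKB2, control duplex 1 replicate 1 was the lowest control.

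Among 12 further inhibitors and feedback regulators, ZC3H12A (Regnase-1), an RNase that degrades cytokine mRNAs, fell. It had 828, 931 and 1046 reads against 2282, 2321, 2563 and 2480, and 2642 in mock, a log2 fold change of -1.46 ± 0.0938 with an adjusted p of 2.21e-05. In these lists, PTGR1 and the NRF2 check genes aside, no gene had a smaller adjusted p. TNIP1, a partner of TNFAIP3, had -0.46 ± 0.0973 (adjusted p of 0.0202), and CYLD and BCL3 had -0.19 and 0.29.

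Of 24 other NF-κB target genes tested, 2 rose and none fell in edgeR, beside 1.39% higher and 1.36% lower of all genes. In DESeq2, 4 were called higher and none lower, beside 4.08% and 3.32% of all genes. TNFSF10 (TRAIL) had 119, 72 and 158 reads against 44, 21, 27 and 27 (1.87 ± 0.302, adjusted p of 0.00586), and TNFSF15 (TL1A) 3974, 2122 and 2264 against 1079, 815, 1153 and 974 (1.42 ± 0.248, adjusted p of 0.00865). The calls were not stable to leaving out single libraries. That of TNFSF10 held only without NFE2L2 duplex 2 or control duplex 1 replicate 1 and that of TNFSF15 only without NFE2L2 duplex 1 or 2, with an adjusted p of up to 0.0280 and 0.0378 otherwise. The median of this list was 0.27, and at an unadjusted p under 0.05 there were 8 genes above 0 and none below. Of all genes tested, 25.0% had such a p in either direction. For C3 and TNFAIP6 the log2 differences were 0.83 and 0.98, with adjusted p of 0.0357 and 0.0263.

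The interleukin-6 and gp130 branch had 3 called genes of 20 in edgeR, beside 2.76% of all genes tested. With DESeq2 this branch had 4 genes higher and 2 lower, beside 4.08% and 3.32% of all genes. STAT3, its main transcription factor, rose from 265 ± 22.7 to 406 ± 34 CPM (0.62 ± 0.0994, adjusted p of 0.00577), and CEBPD rose from 45 ± 6.21 to 82.1 ± 14.1 (0.87 ± 0.142, adjusted p of 0.00629). CEBPB, the NF-IL6 factor, fell from 139 ± 10.1 to 95 ± 7.26 CPM (-0.55 ± 0.0963, adjusted p of 0.00870). For SOCS3, the feedback inhibitor of this branch, the log2 difference was -0.12 (adjusted p of 0.673). With single libraries left out, the call of STAT3 held only without NFE2L2 duplex 1 or 2, that of CEBPD only without NFE2L2 duplex 1 or control duplex 1 replicate 1, and that of CEBPB only without NFE2L2 duplex 1. Otherwise the adjusted p was up to 0.0263, 0.0285 and 0.0402.

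In prostaglandin metabolism 4 of 14 tested genes fell and none rose in edgeR. At an unadjusted p under 0.05 there were 5 above 0 and 6 below, and DESeq2 called 2 higher and 5 lower. Over all genes tested, edgeR called 2.76%, DESeq2 7.41%, and 25.0% had an unadjusted p under 0.05 in edgeR. PTGS2 and PTGES did not pass the test. PTGR1, which inactivates prostaglandins, fell by 2.75 on the log2 scale (adjusted p of 4.72e-06), AKR1C3, a prostaglandin F synthase, by 1.69 (0.000201), TBXAS1, thromboxane synthase, by 1.56 (0.000269) and CBR1, a carbonyl reductase, by 1.29 (0.00185). HPGD, which also inactivates prostaglandins, and the transporter ABCC4 lay on the other side, at 0.77 and 0.41, with an adjusted p of 0.0191 and 0.0289 in edgeR and 0.00068 and 0.00406 in DESeq2. Of the receptors of the ligands, 8 of 27 were tested and none was called. DESeq2 called 1 of them, and 3 had an unadjusted p under 0.05, all below 0. CXCR1, CXCR3 and CXCR6 had no read in any library. None of 8 inflammasome and processing genes or 16 interferon-stimulated genes was called in edgeR, with 4 and 7 above 0 and none below at an unadjusted p under 0.05, medians of 0.25 and 0.48, and 0 and 1 called in DESeq2.

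Markers of other cells were checked beside these values. Leukocyte markers summed to 9.18 to 13.1 CPM in NFE2L2 siRNA and 7.62 to 9.34 in control siRNA, with 4 of 12 tested. Among them ITGAM fell (-1.30, adjusted p of 0.00384 in edgeR), while CD14, the marker with most reads, had 394, 301 and 357 reads against 250, 185, 174 and 156 (0.80, adjusted p of 0.0287 in edgeR and 0.00178 in DESeq2). Fibroblast and endothelial markers summed to 24.1 to 30.9 against 12.8 to 14.7 CPM, with 6 of 10 tested, while DCN had at most 1 read. In edgeR 2 rose, COL1A1 (1.50) and CDH5 (1.99), and none fell, beside 1.39% higher of all genes. DESeq2 called 4 higher and none lower, beside 4.08% higher of all genes. At an unadjusted p under 0.05 in edgeR there were 4, all above 0, beside 25.0% of all genes in either direction. The median of this list was 0.92. Of 8 epithelial markers none was called in edgeR, with 4 at an unadjusted p under 0.05 and 3 called in DESeq2. The part of these genes in the members' values was not tested.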

How the data were processed

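Total RNA from 8 transfections of A549 cells was sequenced with a stranded, ribosomal RNA-depleted protocol. The deposited values are counts, made by the authors with HISAT 0.1.6 against hg19 and HTSeq-count 0.6.0 on GENCODE v19 with the reverse-strand setting, and not normalized. Entries that name no gene, 34.4 to 39.7% of each file, were left out. Positions and exon lengths came from GENCODE v44 mapped to GRCh37, and symbols from NCBI tables.

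The 2 group comparisons used edgeR 4.0.16 in R 4.3.3 (TMM, quasi-likelihood F test, Benjamini-Hochberg over the 17811 genes that reached 10 reads in some library of the 7, threshold 0.01). NFE2L2 siRNA (3) was compared with control siRNA (4) in a fit of 2 groups, and control duplex 2 with duplex 1 in a fit of 3 groups. The study used DESeq2, which was an alternative here (1.42.0), as was limma-voom (3.58.1). P-values measure the spread between transfections of a single line. Gene counts of 35525141 to 41645410 per library set the counting precision, and counting floors (3 reads) cover counting error only. Scripts were tested on simulated data. Replicates were not duplicates, with a chi-square per degree of freedom of 12.6 or more in every pair.

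The members and the gene lists were chosen with earlier results of these data known. All members are named, together with list genes past the threshold and the 5 genes most correlated with the leading member, by log2(CPM + 0.5), of which 1 is not reported here. Other list genes were named for their role after their values were seen. IKBKG, OTUD7B, SOD2, SOCS7 and PECAM1 were not matched. Leaving out control duplex 1 replicate 1 from the overlap counts, and single libraries from the medians, was added after seeing the data. Promoter words were searched in RefSeq windows, and CCL2, CCL5, CSF1, CX3CL1, CXCL16, IL18, LIF, NFKBIE and RELB had none in the table. Alternatives are given in the closing section.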

Additional observations from a re-analysis of the deposited data

Results flagged for a closer look

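In the group of 4 control siRNA libraries, 2 of 41 members had a library far from the other 3, beside about 2.05 that chance gives at 1 in 20. For CCL20, control duplex 1 replicate 1 was lowest at 0.295 CPM, or 11 reads against 23, 24 and 23, and its gap to the nearest library was 0.915 of the range. For IL18, control duplex 1 replicate 2 was highest at 99.0 CPM, against 86.0, 86.8 and 88.1, with a gap of 0.838 of the range. Control duplex 1 replicate 1 is also the library in which 24 of 34 members were lowest among the controls.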

How the results depend on the processing

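Over 39 log2 fold changes and 717 values under alternatives, 0 changed direction, 625 kept their side of the threshold, 67 no longer passed it and 25 newly passed it. For NFE2L2 siRNA against control siRNA, 491 genes passed in edgeR, against 1319 in DESeq2, 1019 with a filter of 1 read, 772 with mock among the controls, 120 and 59 against control duplex 1 or 2 alone, 77 with each control duplex summed to a single library, and 1456 at 0.05. Leaving out 1 library gave 163 to 915. Members higher and lower were 1 and 0 in edgeR, 2 and 2 in DESeq2 and at 0.05, 2 and 0 with library size alone or with mock added, 3 and 1 with the filter of 1 read, and 0 and 0 against either control duplex alone or with summed libraries. Leaving out 1 library gave 0 to 2 higher and 0 to 2 lower. For control duplex 2 against duplex 1, 0 genes passed in edgeR (1293 at an unadjusted p under 0.05), 0 in limma-voom, 70 in DESeq2, 8 with the filter of 1 read, 10 at 0.05, 566 with the 4 control libraries alone and 0 to 9 without 1 library. Members higher and lower were 1 and 1 with the 4 control libraries alone. With a replicate block on those 4 libraries 2615 of 17261 genes passed. Among the 41 members, 12 were higher and 4 lower, in both directions together a larger share than over all genes. With 4 libraries and a replicate term, that fit leaves very few residual degrees of freedom. The labels do not say that a replicate number marks a shared batch. The numbers are therefore not taken as pairs in the main fits. There are only 2 pairs, and their deviations from the duplex means correlate at 0.299 over 13335 genes. Whether replicates of the same number share an effect was not tested. No paired analysis was possible because the NFE2L2 siRNA numbers name duplexes, for that comparison. The cause of these differences was not tested. Depth limits IL1A, IL1B, IL6, IL23A, CCL20, CCL26 and CX3CL1 most, with 3 to 73 reads a library.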
